A study of Homo sapiens with 9 samples.

Results

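The core of the splicing machinery was examined in THP-1 cells after knockdown of the transcription factor NFATC2. The genes were the protein-coding entries of the deposited comparison tables whose symbols start with SNRP, SF3A, SF3B, SRSF, HNRNP, or LSM and a digit. The rule uses names and no measured value, and it found 69 genes among the 58735 gene identifiers of the count table. Of these, 68 passed the filter on low counts, which 14975 genes passed in all. The exception, HNRNPUL2-BSCL2, is an annotated read-through gene with a summed count of 2.

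THP-1 is an established cell line from human acute myeloid leukaemia and carries an MLL-AF9 fusion. They received lentivirus produced in 293T cells by spinoculation, were put under puromycin after 24 hours and were harvested for polyadenylated RNA at 48 hours. The 3 groups of 3 libraries each were a control with a non-targeting shRNA and the NFATC2 knockdown constructs shRNA-143 and shRNA-146. All groups therefore carried a lentiviral vector and passed selection, and all came from a single line. Nothing states that replicates are separate cultures, so p-values reflect the spread between libraries, which could be technical alone. In bulk RNA, fewer cells of a kind and less RNA per cell cannot be told apart.

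Splicing removes introns from pre-mRNA. The spliceosome is built from small nuclear ribonucleoproteins (snRNPs), in which the U1, U2, U4 and U5 RNAs each sit in a ring of Sm proteins (SNRPB, SNRPD1, SNRPD2, SNRPD3, SNRPE, SNRPF and SNRPG), while U6 RNA carries a related ring of LSM2 to LSM8. A cytoplasmic ring with LSM1 in place of LSM8 instead promotes decapping and decay of mRNA. The SF3A and SF3B complexes join the U2 snRNP at the branch point, SR proteins bind exons and mostly favour nearby splice sites, and hnRNPs coat nascent RNA and often oppose their use. SF3B1 and SRSF2 are recurrently mutated in myeloid malignancy.

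Library totals ran from 40047459 to 44669709 counts, and the 69 genes held 1.457% to 1.806% of them. Levels are given as CPM, the count scaled to a common library total after TMM normalization. NFATC2 was at 12.7, 27.6 and 27.4 CPM in control replicates 1 to 3, 1.49, 7.40 and 6.95 under shRNA-143, and 2.59, 6.71 and 9.43 under shRNA-146, so all 6 knockdown libraries lay below the controls. Its log2 change for the mean of both constructs was -2.12 ± 0.19 with the block (adjusted p = 0.000575) and -1.97 ± 0.51 without it (adjusted p = 0.325). Of 10 myeloid markers 9 exceeded 1 CPM in every library, while CD3D, CD3E, MS4A1, KRT19, PAX2, HBB and COL1A2, markers of other cell types, had no count. KRT8 was at 2.01 to 4.82 CPM and COL1A1 at 0.795 to 3.01. Libraries with the same replicate number deviated together across groups, most clearly those numbered 1, while those numbered 2 and 3 in part deviated with each other. The library shRNA-146 replicate 1 had the fewest genes with a count (18485, against 19379 to 21723 in the others). Results come from a fit of 3 group means and from a fit that also holds the replicate number as a block. Both are given for every gene that passed in either for at least 1 comparison, and a gene that passed in neither is given from 1 of them, the blocked fit where the block is named.

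Promoter sequences are shown for SF3B5, SRSF8 and SF3B1. The first pair fell with the block for the mean of both constructs and were lower in all 6 knockdown libraries than in any control. SF3B1, a partner of SF3B5 in SF3B, did neither. Each sequence is the 250 bases before the most upstream RefSeq start (GRCh38.p14), 5′ to 3′ on the strand of the gene. Capitals mark GGAAA, the core of NFAT sites, in either orientation. The windows lie at chr6:144095574-144095823 (minus strand), chr11:95066627-95066876 (plus strand) and chr2:197435094-197435343 (minus strand), and hold no annotated exon of GENCODE 29.
SF3B5: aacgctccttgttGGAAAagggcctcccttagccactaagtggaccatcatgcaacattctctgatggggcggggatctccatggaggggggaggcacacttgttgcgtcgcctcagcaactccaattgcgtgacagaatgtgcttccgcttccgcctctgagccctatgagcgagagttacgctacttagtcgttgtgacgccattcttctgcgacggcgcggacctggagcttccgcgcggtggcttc
SRSF8: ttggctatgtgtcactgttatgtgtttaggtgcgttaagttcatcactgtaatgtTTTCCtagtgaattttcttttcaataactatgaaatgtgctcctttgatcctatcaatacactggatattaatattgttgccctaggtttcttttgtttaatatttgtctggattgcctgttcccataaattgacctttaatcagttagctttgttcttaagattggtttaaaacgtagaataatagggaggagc
SF3B1: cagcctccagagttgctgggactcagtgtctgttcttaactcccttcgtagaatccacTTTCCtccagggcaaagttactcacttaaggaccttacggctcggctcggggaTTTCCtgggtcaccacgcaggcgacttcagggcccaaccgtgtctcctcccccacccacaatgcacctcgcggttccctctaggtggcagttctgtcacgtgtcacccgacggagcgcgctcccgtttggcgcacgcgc
SF3B5 and SRSF8 hold 1 match each and SF3B1 holds 2. HNRNPL was also lower in all 6 knockdown libraries and has a window free of exons, with 3 matches. It did not pass for the mean (adjusted p = 0.329 with the block) and is not shown. SNRPA and HNRNPA0 passed and were lower in all 6, but their windows overlap their own exons. None of the windows shown holds CCGGAAG, an ETS motif that shares the letters GGAA with the NFAT core. Windows matched 61 of the 69 genes by symbol. GGAAA was present on either strand in 65.6% of them, against 53.6% of the 10399 windows of tested genes. CCGGAAG was present in 20 of 61 (32.8%), against 16.2% for tested genes and 8.78% of all 27305 windows, and by role in 6 of 8 SF3A and SF3B windows, 4 of 7 Sm core windows and 2 of 11 SR protein windows. The other motifs searched on both strands were CCAAT (42.6% against 35.1% of tested genes), GGGCGG (63.9% against 66.9%), CACGTG (11.5% against 8.79%), TATAAA (8.2% against 5.43%) and the NRF1 palindrome (0% against 1.13%). In 10 of the 61 genes the window lay wholly inside GENCODE 29 exons of its own gene, and in 38 partly. The median log2 change for the mean of both constructs was -0.24 in the 20 tested genes with CCGGAAG and -0.20 in the 40 without it, and -0.22 in the 39 with GGAAA and -0.20 in the 21 without it.

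For the mean of both constructs 57 of the 68 genes had a log2 change below 0, but 0 passed the test without the block, and 10 passed with it, all as lower. Without the block, 0 of 68 genes had an adjusted p under 0.05 (edgeR quasi-likelihood test, Benjamini-Hochberg over all tested genes) in any comparison with control. Over all tested genes the lower and higher shares that passed were 0.0401% and 0.00668% for shRNA-143, 0.00668% and 0.0267% for shRNA-146 and 0.0134% and 0.02% for the mean. At an unadjusted p under 0.05, 4 genes were lower and 0 higher for shRNA-143 (3.62% and 3.19% of all genes), 11 and 0 for shRNA-146 (4.53% and 4.28%), and 9 and 0 for the mean (4.95% and 4.39%). DESeq2 called 0 as lower for shRNA-143 (0.605% of all genes), 2 for shRNA-146, LSM7 and SF3B5 (0.487%), and 1 for the mean, SF3B5 (0.62%), and limma-voom called 0.

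With the block, 1 gene fell with shRNA-143 and 0 rose (1.57% and 1.6% of all genes). With shRNA-146, 8 fell and 0 rose (1.96% and 2.46%). For the mean of both constructs 10 fell and 0 rose (2.75% and 2.98%). Those that fell for the mean were LSM2, LSM4, LSM6, LSM7, SNRPA, SNRPD2, SNRPG, SF3B5, SRSF8 and HNRNPA0, and SNRPB fell with shRNA-146 but not for the mean. SF3B5 was the single gene to pass with both constructs (lower in 0.341% of all genes, higher in 0.995%).

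Genes below control made up 52 of 68 with shRNA-143 (47.8% of all tested genes), 56 with shRNA-146 (44.6%) and 57 for the mean (46.5%). The median log2 change of the 68 genes was -0.20, -0.25 and -0.22, against 0.02, 0.05 and 0.03 over all tested genes. Scaling by library size alone moved the all-gene medians to 0.12, 0.19 and 0.15 and those of the 68 genes to -0.11, -0.13 and -0.11, with 48 of 68 below 0 in each. All 3 shRNA-143 libraries lay below all controls for 11 genes (8.11% of all tested genes) and above for 0 (7.09%). For shRNA-146 these counts were 16 (7.46%) and 0 (7.25%). All 6 knockdown libraries lay below the controls for 9 genes (2.77%), namely SNRPA, SF3B5, SRSF5, SRSF8, HNRNPA0, HNRNPA1, HNRNPAB, HNRNPDL and HNRNPL, and above for 0 (3.08%). Matched by replicate number, 42 genes were lower in all 3 numbers with shRNA-143 (26.9%), 37 with shRNA-146 (19.8%) and 31 with both (13.1%). Both constructs share the control libraries, so these counts are not independent of each other.

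**Figure D1:**
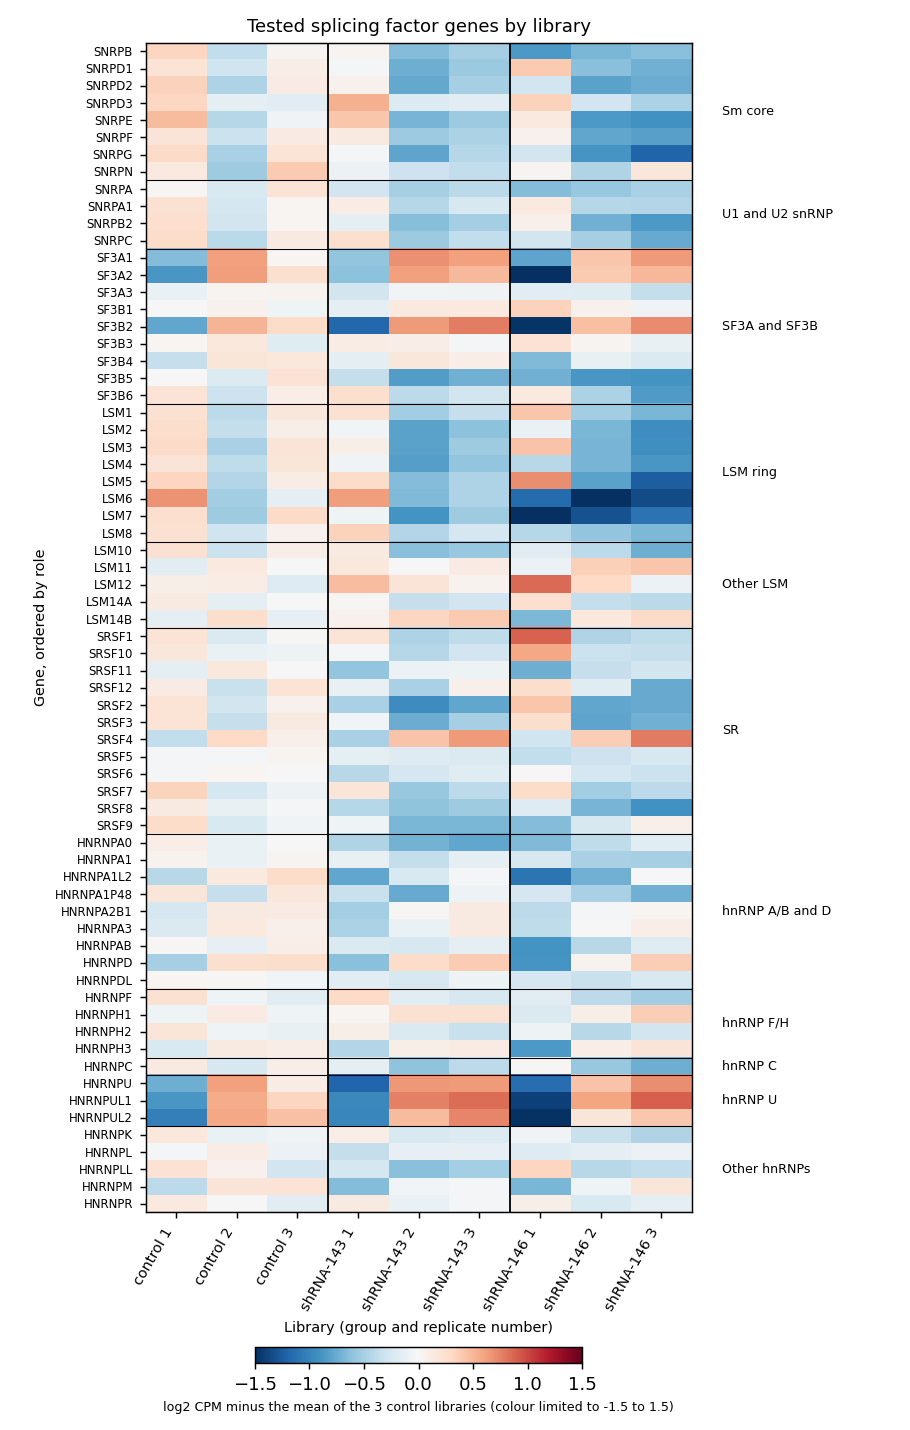
Heat map of the 68 tested genes (vertical axis, ordered by role) in the 9 libraries (horizontal axis, group and replicate number). Colour is log2 CPM minus the mean of the 3 control libraries, limited to -1.5 and 1.5. Blue prevails in the Sm and LSM ring rows of the knockdown libraries numbered 2 and 3. Control replicate 2 is blue in these rows too. Its summed Sm core level was 1372 CPM, against 2221 and 1877 in control replicates 1 and 3. Its summed LSM ring level was 927 CPM, against 1502 and 1403. The knockdown libraries numbered 1 mix red and blue in these rows. SF3A1, SF3A2, SF3B2, HNRNPU, HNRNPUL1 and HNRNPUL2 are blue in the libraries numbered 1 of every group, controls included.

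The Sm core role holds the Sm ring genes named above and SNRPN. SNRPN was at only 9.49 CPM in controls, and other genes overlap 33.6% of its exon bases. All 8 Sm core genes were below control for the mean of both constructs (median log2 change -0.37), and 7 when scaled by library size alone. With shRNA-143 alone 7 of 8 were below control. None passed without the block, and SNRPD2 and SNRPG fell with it. SNRPD2, which sits beside SNRPD1 in the ring, was at 551, 316 and 474 CPM in control replicates 1 to 3, 455, 255 and 307 under shRNA-143, and 356, 249 and 260.0 under shRNA-146. The groups overlapped through control replicate 2, but each knockdown library was at 54.9% to 82.5% of the control of its own number. Its mean log2 change was -0.51 ± 0.12 with the block (1.42-fold lower, adjusted p = 0.0325) and -0.52 ± 0.24 without it (adjusted p = 0.567).

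SNRPG, another ring member, measured 280.5, 164 and 264 CPM in the controls, against 226, 133 and 172 under shRNA-143 and 189.8, 125 and 100.5 under shRNA-146. The mean log2 change was -0.60 ± 0.15 in the blocked fit (1.52-fold lower, adjusted p = 0.0434), against -0.60 ± 0.26 without the block (adjusted p = 0.53). GENCODE 29 names 20 pseudogenes after SNRPG, so its count depends on how reads shared with copies were assigned. SNRPB, which gives the SmB proteins and had the highest level per length of all 69 genes (414 CPM per kb in controls), had control levels of 650.4, 400.4 and 536 CPM, shRNA-143 levels of 534, 330.2 and 367, and shRNA-146 levels of 285, 322 and 336. All 3 shRNA-146 libraries were below every control. The shRNA-146 change was -0.71 ± 0.18 with the block (1.64-fold lower, adjusted p = 0.0489) and -0.75 ± 0.25 without it (adjusted p = 0.448). The blocked call was lost in 7 of 9 analyses that each left out a library and when scaled by library size alone (adjusted p = 0.101). Other genes overlap 20% of the exon bases of SNRPB.

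The 4 proteins of the U1 and U2 snRNPs were also below control for the mean (median -0.40), and 1 of them fell with the block. SNRPA, the U1-A protein that binds a stem-loop of U1 RNA, was at 131, 110.3 and 149.7 CPM in control replicates 1 to 3, 106, 91.7 and 97.96 under shRNA-143, and 82.5, 87.5 and 92.1 under shRNA-146. No knockdown library reached the lowest control. The mean log2 change was -0.48 ± 0.11 with the block (1.40-fold lower, adjusted p = 0.0352) and -0.49 ± 0.15 without it (adjusted p = 0.362). SNRPC, the U1-C protein that steadies the pairing of U1 with the 5′ splice site, had the next highest level per length in controls (372 CPM per kb). It measured 565, 351 and 510.1 CPM in the controls, against 549.7, 319 and 361 under shRNA-143 and 384, 331 and 277 under shRNA-146. Its groups overlapped, and the mean change of -0.37 ± 0.14 did not pass (adjusted p = 0.128 with the block).

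Within SF3A and SF3B a single subunit of 9 fell. The role median for the mean was -0.01, and 0.14 when scaled by library size alone. SF3B5, the smallest subunit of SF3B, was at 239, 208 and 279 CPM in control replicates 1 to 3, 188, 135 and 145.7 under shRNA-143, and 146.1, 131 and 129 under shRNA-146. All 6 knockdown libraries were below all 3 controls. With the block SF3B5 fell with shRNA-143 (-0.64 ± 0.14, adjusted p = 0.0381) and with shRNA-146 (-0.83 ± 0.14, adjusted p = 0.0127). For the mean its change was -0.74 ± 0.12 with the block (1.67-fold lower, adjusted p = 0.00936) and -0.74 ± 0.16 without it (adjusted p = 0.264), and DESeq2 gave an adjusted p of 0.0105. In the authors' deposited table its log2 fold change was -0.61 with shRNA-143 (adjusted p = 0.352) and -0.83 with shRNA-146 (adjusted p = 0.135). SF3B5 is a short gene of 693 bases at chr6:144094881-144095573 (hg38, minus strand) whose exons overlap no other gene. After a correction for gene length the mean change was -0.47 (adjusted p = 0.0295 with the block), and shRNA-143 no longer passed (adjusted p = 0.122).

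The other 8 subunits gave no call. SF3B1, the scaffold that holds the branch point, measured 318, 335 and 306 CPM in the controls, against 289, 352 and 352 under shRNA-143 and 406, 333 and 308 under shRNA-146. The groups overlapped, with a mean change of 0.09 ± 0.15 (adjusted p = 0.88) that turned to -0.06 with the block and the length correction. SF3A2, an SF3A subunit, had control levels of 56.6, 159 and 122 CPM, shRNA-143 levels of 67.7, 159 and 145, and shRNA-146 levels of 22.6, 136 and 146.04. SF3B2, which contacts pre-mRNA near the branch point, was at 64.4, 157 and 134 CPM in control replicates 1 to 3, 48.8, 173 and 189 under shRNA-143, and 40.1, 151 and 180.4 under shRNA-146. In both genes the library numbered 1 was the lowest of all 3 groups. SF3A2 and SF3B2 were picked for description after their values were seen.

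The LSM ring held the most calls of any role for the mean of both constructs. All 8 genes from LSM1 to LSM8 were below control for the mean under every scaling tried (median -0.43), and LSM2, LSM4, LSM6 and LSM7 fell with the block, while 0 passed without it. The summed level of the 8 genes was 1502, 927 and 1403 CPM in controls, 1313, 731 and 866 under shRNA-143, and 1173, 718 and 640 under shRNA-146. Each knockdown library was below the control of its own number, and the groups overlapped. LSM1, which marks the decay ring, had a mean change of -0.25 ± 0.16 (adjusted p = 0.348 with the block), and LSM8, which marks the U6 ring, -0.33 ± 0.13 (adjusted p = 0.136).

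LSM6, a member of both rings, was at 55.6, 24.4 and 31.5 CPM in control replicates 1 to 3, 53.8, 22.03 and 25.4 under shRNA-143, and 15.8, 10.8 and 13.7 under shRNA-146. All 3 shRNA-146 libraries were below every other library, at 28.3%, 44.5% and 43.6% of the control of the same number, against 96.7%, 90.4% and 80.8% for shRNA-143. With shRNA-146 the log2 change was -1.38 ± 0.18 with the block (2.60-fold lower, adjusted p = 0.00524) and -1.47 ± 0.41 without it (adjusted p = 0.406). With shRNA-143 it was -0.16 ± 0.17 (adjusted p = 0.635 with the block). The gene lies at chr4:146175685-146200000 (hg38, plus strand) and its exons overlap no other gene.

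LSM7, also in both rings, measured 230.2, 134 and 237 CPM in the controls, against 186, 105 and 134 under shRNA-143 and 41.6, 78.5 and 89.8 under shRNA-146. Again all 3 shRNA-146 libraries were below every other library. The shRNA-146 change was -1.48 ± 0.30 in the blocked fit (2.78-fold lower, adjusted p = 0.0267), against -1.52 ± 0.35 without the block (adjusted p = 0.304), and DESeq2 gave an adjusted p of 0.01. The blocked call passed in 3 of 9 analyses that each left out a library, with changes from -1.84 to -1.04 and adjusted p from 0.00373 without shRNA-146 replicate 1 to 0.168 without shRNA-146 replicate 3, and it missed when scaled by library size alone (adjusted p = 0.0506). In the authors' deposited table LSM7 and LSM6 were the only splicing genes here with an adjusted p under 0.05, both with shRNA-146 (log2 fold change -1.51, adjusted p = 0.0273, and -1.46, adjusted p = 0.0328), and 0 of 69 had one with shRNA-143. Over all genes listed in the authors' deposited table, the shares that passed were 0.101% as lower and 0.151% as higher with shRNA-146, and 0.374% and 0.21% with shRNA-143.

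LSM2, another member of both rings, had control levels of 189, 123 and 167 CPM, shRNA-143 levels of 153, 89.8 and 103, and shRNA-146 levels of 146.2, 97.8 and 82.6. The mean change was -0.53 ± 0.13 with the block (1.45-fold lower, adjusted p = 0.0386) and -0.51 ± 0.25 without it (adjusted p = 0.572). LSM4, a further member of both, was at 388, 261 and 386 CPM in control replicates 1 to 3, 326, 191 and 226 under shRNA-143, and 253, 209 and 185 under shRNA-146. It gave a mean change of -0.58 ± 0.13 in the blocked fit (1.495-fold lower, adjusted p = 0.0331), against -0.58 ± 0.22 without the block (adjusted p = 0.46). LSM2 overlapped the controls with both constructs, and LSM4 with shRNA-143 only.

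**Figure D2:**
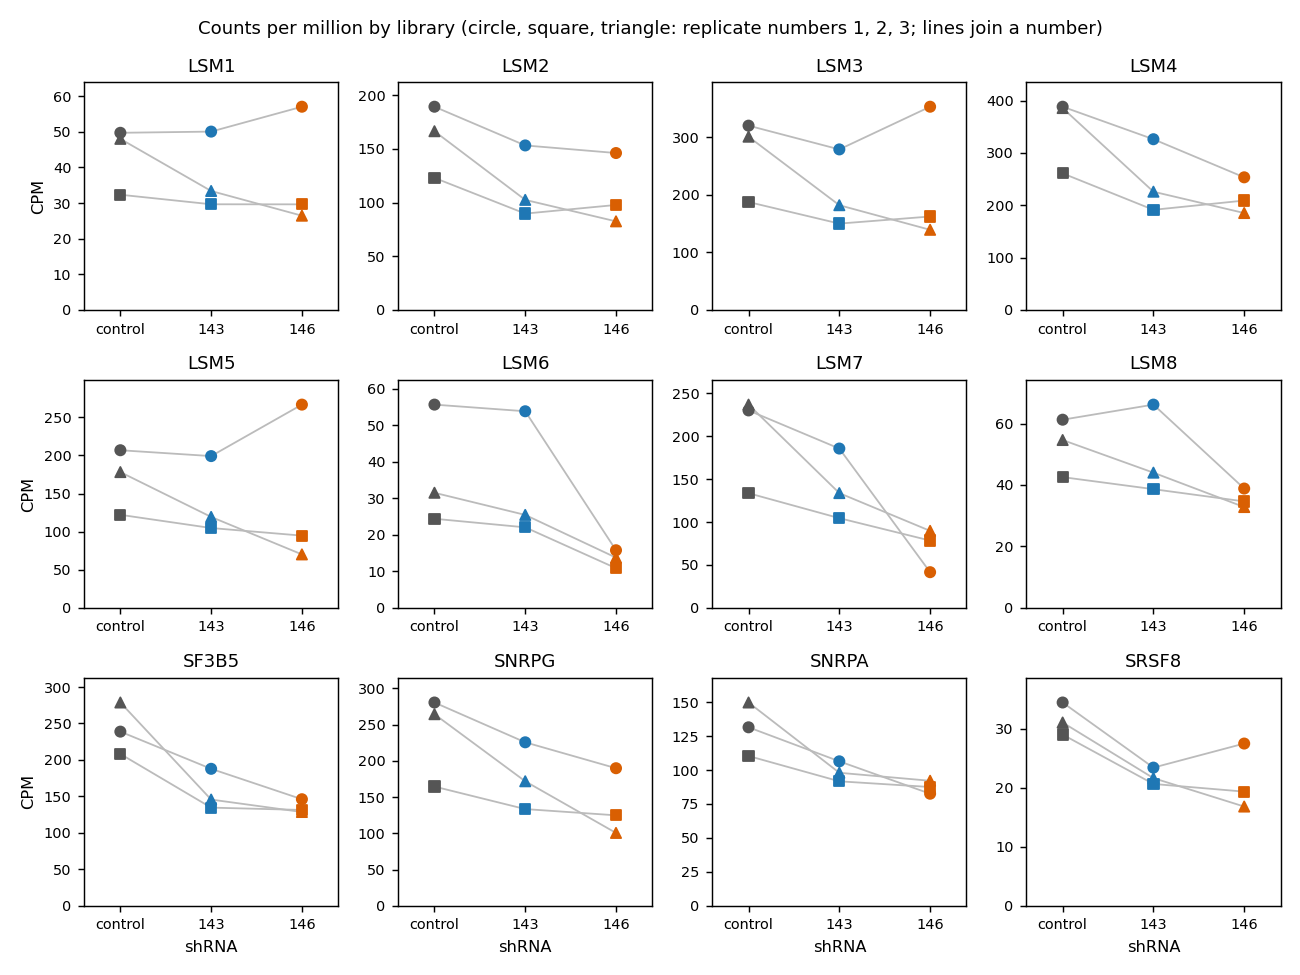
CPM (vertical axis, from 0) of LSM1 to LSM8, SF3B5, SNRPG, SNRPA and SRSF8 in control, shRNA-143 and shRNA-146 libraries (horizontal axis). Circles, squares and triangles are single libraries numbered 1, 2 and 3, and grey lines join a number. LSM6 and LSM7 values under shRNA-146 lie below those of every other library, and all 6 knockdown values of SF3B5, SNRPA and SRSF8 lie below the 3 controls.

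The LSM proteins outside these rings gave no call in either fit. LSM12 measured 59.3, 60.5 and 48.8 CPM in the controls, against 77.1, 64.1 and 57.96 under shRNA-143 and 101, 68.7 and 52.5 under shRNA-146. It was the only splicing gene above control in all 3 replicate numbers with both constructs, where 12.4% of all tested genes were, and its mean change of 0.29 ± 0.13 did not pass (adjusted p = 0.195 with the block). LSM12 was picked after its values were seen. LSM10, which sits in the U7 snRNP of histone mRNA processing, had control levels of 36.3, 24.7 and 33.01 CPM, shRNA-143 levels of 34.00, 20.1 and 20.8, and shRNA-146 levels of 27.6, 23.6 and 18.6 (mean -0.39 ± 0.14, adjusted p = 0.122 with the block). LSM14A, a component of cytoplasmic RNA granules, gave -0.19 ± 0.11 (adjusted p = 0.324 with the block).

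Among the 12 SR protein genes, 11 were below control for the mean (median -0.24), and SRSF8 fell with the block while 0 passed without it. SRSF8, a close relative of SRSF2, was at 34.4, 29.01 and 31.1 CPM in control replicates 1 to 3, 23.4, 20.6 and 21.6 under shRNA-143, and 27.5, 19.3 and 16.8 under shRNA-146. The knockdown libraries did not overlap the controls. The mean change was -0.56 ± 0.13 with the block (1.47-fold lower, adjusted p = 0.0331) and -0.55 ± 0.18 without it (adjusted p = 0.419). SRSF2, which binds exonic enhancers, had control levels of 488, 351 and 444 CPM, shRNA-143 levels of 302, 220.2 and 248, and shRNA-146 levels of 566, 247 and 251. All 3 shRNA-143 libraries were below the controls, but shRNA-146 replicate 1 was the highest of all 9. With the block SRSF2 gave -0.74 ± 0.19 with shRNA-143 (adjusted p = 0.058) and -0.36 ± 0.19 with shRNA-146 (adjusted p = 0.277). Without shRNA-146 replicate 1 both passed (-0.74, adjusted p = 0.00229, and -0.66, adjusted p = 0.0112), the first also passed without shRNA-146 replicate 3 (adjusted p = 0.0101), and the second ranged from -0.66 to -0.16 over the libraries left out. Other genes overlap 36.7% of the exon bases of SRSF2. SRSF5, an SR protein with little spread within groups, measured 99.5, 99.04 and 103 CPM in the controls, against 91.9, 88.2 and 86.6 under shRNA-143 and 77.9, 80.8 and 85.1 under shRNA-146. Its 3 groups did not overlap, and the mean change of -0.24 ± 0.10 did not pass (adjusted p = 0.167 with the block). SRSF5 was picked after its values were seen.

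The hnRNP A, B and D genes were below control in 9 of 9 for the mean (median -0.30), and in 6 when scaled by library size alone. They include HNRNPA1L2 and HNRNPA1P48, named after HNRNPA1, at only 4.53 and 7.78 CPM in controls. These low counts may depend on how reads shared with HNRNPA1 were assigned. HNRNPA0, which acts on mRNA stability, was at 334, 292 and 312 CPM in control replicates 1 to 3, 228, 191 and 182 under shRNA-143, and 197, 239 and 276 under shRNA-146. No knockdown library reached the lowest control. The mean change was -0.52 ± 0.13 with the block (1.43-fold lower, adjusted p = 0.0457) and -0.52 ± 0.16 without it (adjusted p = 0.376). HNRNPA1, which can silence exons, measured 1854, 1661 and 1836 CPM in the controls, against 1653, 1392 and 1614 under shRNA-143 and 1505, 1273 and 1263 under shRNA-146. Here too no knockdown library reached the lowest control, and the mean change of -0.30 ± 0.11 did not pass (adjusted p = 0.117 with the block). HNRNPA1 has 74 pseudogenes by name, the most of any gene here.

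The remaining hnRNPs gave no call. HNRNPC, which binds uridine tracts and packages nascent RNA, had control levels of 1538, 1182 and 1501 CPM, shRNA-143 levels of 1261, 923 and 1066, and shRNA-146 levels of 1415, 944 and 839. Its groups overlapped, with a mean change of -0.40 ± 0.13 (adjusted p = 0.0889 with the block). HNRNPK, a poly(C)-binding protein, gave -0.19 ± 0.10 (adjusted p = 0.276 with the block). HNRNPF, which binds G tracts, gave -0.03 ± 0.21 with shRNA-143 and -0.36 ± 0.21 with shRNA-146 (adjusted p = 0.985 and 0.683), and the first value turned to 0.06 when scaled by library size alone. For the mean with the block, HNRNPH2, its relative, gave -0.21 ± 0.11 (adjusted p = 0.266) and HNRNPLL, known for splicing of CD45 in T cells, -0.31 ± 0.13 (adjusted p = 0.164). HNRNPUL1, a relative of the nuclear scaffold protein HNRNPU, was at 138, 372 and 315 CPM in control replicates 1 to 3, 129, 426 and 451 under shRNA-143, and 95.99, 382 and 469.7 under shRNA-146. The library numbered 1 was the lowest of each group. Its mean change was 0.24 ± 0.55 without the block and 0.11 ± 0.15 with it, and passed in neither (adjusted p = 0.907 and 0.694).

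**Figure D3:**
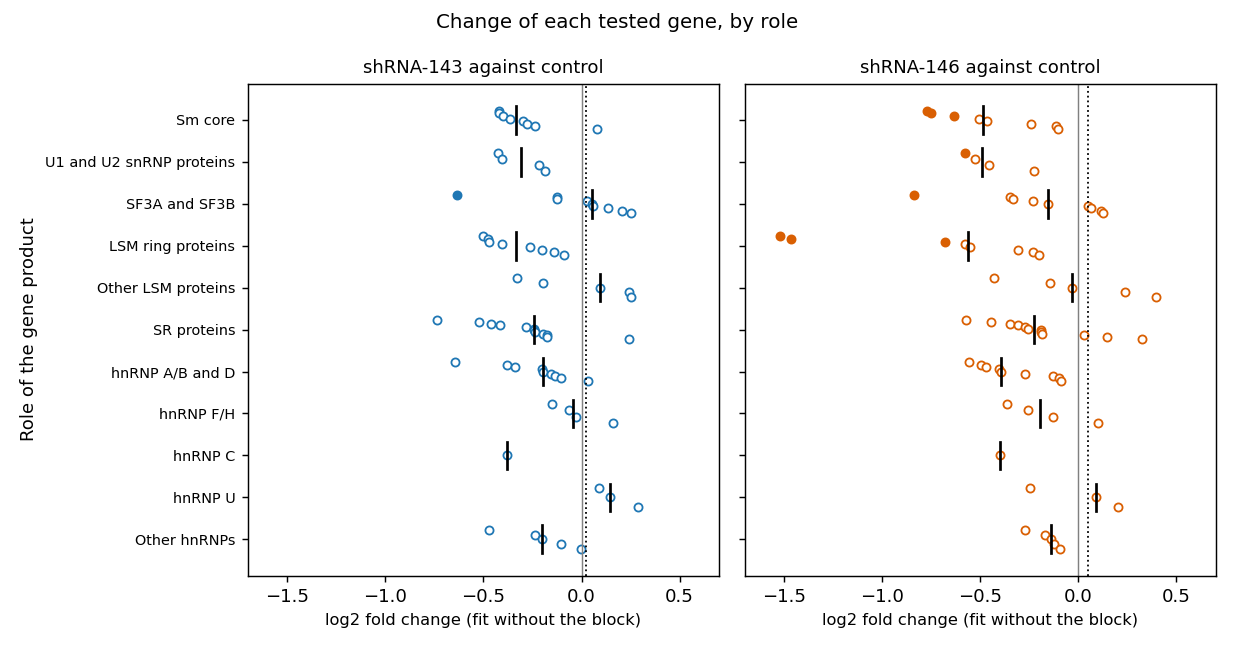
Log2 fold change of each tested gene in the fit without the block (horizontal axis) by role (vertical axis), for shRNA-143 (left) and shRNA-146 (right) against control. Filled points passed an adjusted p of 0.05 with the block, black bars are role medians and the dotted line is the median of all tested genes. Medians of the Sm core (-0.33 and -0.49), the U1 and U2 proteins (-0.31 and -0.49) and the LSM ring (-0.33 and -0.56) lie left of those of SF3A and SF3B (0.05 and -0.15). Median gene lengths of these roles differ as well, at 2169.5, 2484, 3422 and 4740 bases in that order, and the part of length in this contrast was not tested.

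Gene length moved with these changes, and its part in them was not tested beyond the correction given here. Over all tested genes the median change for the mean of both constructs went from -0.20 in the shortest of 5 length bins (up to 2312 bases) through -0.09, 0.03 and 0.11 to 0.21 in the longest. The splicing genes gave -0.41 in the shortest bin (16 genes), then -0.20 (14), -0.24 (14), -0.17 (13) and 0.06 in the longest (11), each below the median of all genes in its bin. In the shortest bin 5 of 16 fell with the block, where 5.01% of all genes did. With the block and a correction for gene length, 1 gene passed as lower with shRNA-143 (1.44% of all genes), 5 with shRNA-146 (1.41%) and 6 for the mean (2.03%). Of the 8 calls with shRNA-146, LSM6 (adjusted p = 0.00373), LSM7 (0.0272) and SF3B5 (0.0346) passed, while LSM4 (0.0539), SNRPA (0.0798), SNRPB (0.104), SNRPD2 (0.103) and SNRPG (0.0986) no longer did. For the mean, SNRPD2 (adjusted p = 0.119), SNRPG (0.139), SNRPA (0.0824), LSM2 (0.174) and LSM7 (0.0605) no longer passed. Genes that passed only with the correction were HNRNPA0 with shRNA-143 (adjusted p = 0.0344), LSM8 (0.0482) and SRSF11 (0.0235) with shRNA-146, and SRSF11 for the mean (0.0253). Of the 68 genes, 53 were in the most abundant of 5 bins of all tested genes, where the median change was -0.07 over all genes and -0.22 over these, and where 5.11% of all genes fell with the block.

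**Figure D4:**
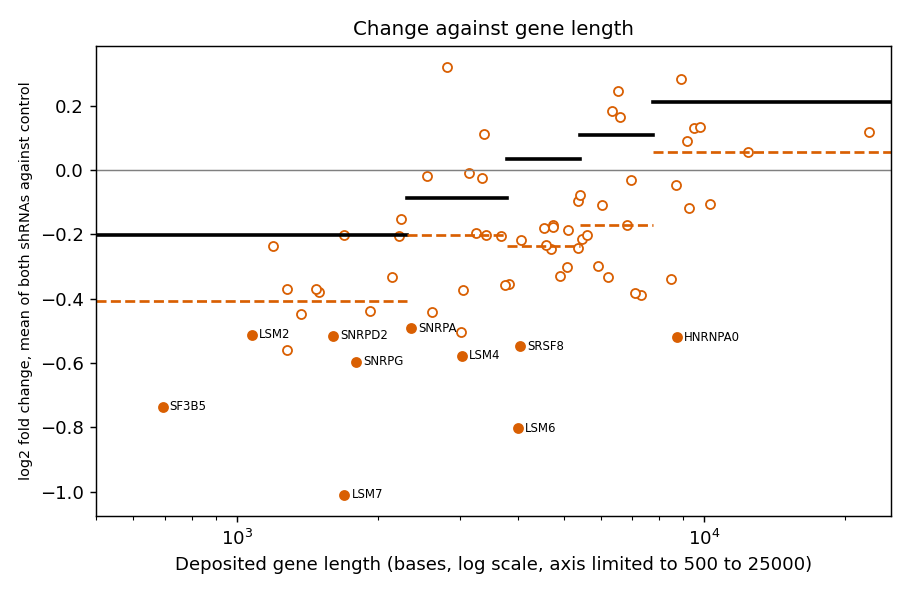
Log2 fold change for the mean of both constructs without the block (vertical axis) against deposited gene length in bases (horizontal axis, log scale) for the 68 genes. Filled points passed with the block, black lines are medians of all tested genes in each of 5 length bins and dashed orange lines those of the splicing genes. The orange line lies below the black one in all 5 bins, at -0.41 against -0.20 in the shortest.

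The constructs differed in LSM6. Between shRNA-146 and shRNA-143, 0 of 68 genes passed without the block (0% and 0.0467% of all tested genes as lower and higher). At an unadjusted p under 0.05, 2 were lower and 0 higher (1.45% and 2.3%), and DESeq2 and limma-voom called 0. With the block LSM6 alone passed, as lower with shRNA-146 (-1.22 ± 0.18, adjusted p = 0.00825), where 0.421% and 0.775% of all genes passed as lower and higher. All 3 shRNA-146 libraries lay below all 3 shRNA-143 libraries in LSM6, LSM7 and SRSF5 (3.69% of all tested genes). LSM7 differed by -0.99 ± 0.30 (adjusted p = 0.206 with the block). The median difference of the 68 genes was -0.09, against 0.01 over all genes, with 46 below 0 (47.9% of all genes).

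Other parts of the splicing and mRNA decay machinery showed no common direction. Of 198 tested genes on 10 lists, 100 were below control for the mean of both constructs and the median change was -0.00. None passed without the block in edgeR (9 lower and 1 higher at an unadjusted p under 0.05) or limma-voom. DESeq2, also without the block, called 1, KHDRBS1, beside 0.62% of all genes as lower. With the block 8 fell and 0 rose, beside 2.75% and 2.98% of all tested genes. In the tri-snRNP list of 23 genes, SNU13, which binds U4 RNA, was at 426, 288 and 406 CPM in control replicates 1 to 3, 201, 129 and 141 under shRNA-143, and 388, 219 and 209 under shRNA-146 (mean -0.88 ± 0.13 with the block (adjusted p = 0.00775) and -0.85 ± 0.25 without it (adjusted p = 0.355)). With the block SNU13 fell with shRNA-143 (-1.26 ± 0.16, adjusted p = 0.00298), did not pass with shRNA-146 (-0.50 ± 0.16, adjusted p = 0.0914) and differed between the constructs (0.77 ± 0.16 for shRNA-146 against shRNA-143, adjusted p = 0.0431), while without the block none of the 3 passed in edgeR (adjusted p = 0.306, 0.714 and 1). DESeq2 without the block gave SNU13 an adjusted p of 0.0239 with shRNA-143, 0.719 with shRNA-146 and 0.688 between the constructs. PPIH, a cyclophilin of the tri-snRNP, gave -0.74 ± 0.11 with the block (adjusted p = 0.00831) and -0.76 ± 0.20 without it (adjusted p = 0.335). Its adjusted p in DESeq2 was 0.075 for the mean and 0.0271 with shRNA-146. KHDRBS1, the RNA-binding protein Sam68, measured 209.8, 215 and 238 CPM in the controls, against 119, 141 and 136 under shRNA-143 and 169.6, 168 and 162 under shRNA-146. Its 6 knockdown libraries lay below the controls, and the mean change was -0.58 ± 0.10 with the block (adjusted p = 0.0139) and -0.58 ± 0.13 without it (adjusted p = 0.264). For KHDRBS1 DESeq2 without the block gave an adjusted p of 0.00265 for the mean, 0.000412 with shRNA-143 and 0.189 with shRNA-146.

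The snRNP assembly list, which covers the methylosome and the SMN complex that loads Sm proteins on snRNAs, had a median of -0.13 with 13 of 18 below control. COPRS (-0.74 ± 0.13, adjusted p = 0.0132) and GEMIN2 (-0.50 ± 0.12, adjusted p = 0.0397) fell there with the block, with adjusted p of 0.38 and 0.678 without it. TIA1 (-0.59 ± 0.12, adjusted p = 0.0249), the minor spliceosome gene SNRNP25 (-0.47 ± 0.12, adjusted p = 0.0475) and MAGOH of the exon junction complex (-0.54 ± 0.14, adjusted p = 0.0434) also fell with the block, and not without it (adjusted p = 0.537, 0.577 and 0.408). The decapping partners of the LSM1 ring had a median of 0.18 with 2 of 11 below control and 0 called. The medians were 0.13 for exon junction and nonsense-mediated decay genes, 0.11 for SR protein kinases and SR-related proteins, 0.02 for U1 factors, 0.01 for U2 and 3′ splice site factors, -0.00 for the PRP19 complex and catalytic factors, -0.03 for the tri-snRNP, -0.05 for other RNA-binding proteins and -0.10 for the minor spliceosome. ZRSR2, of the minor spliceosome, was at 1.62 ± 0.543 CPM in controls, 1.67 ± 0.377 under shRNA-143 and 1.37 ± 0.669 under shRNA-146 (SD, n = 3 libraries each). U2AF1 was at 0.0254 to 0.568 CPM, and since a near-identical copy, U2AF1L5, is annotated on chromosome 21, its level cannot be read from these counts.

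The calls with the block depended on which libraries entered. Leaving out each of the 9 libraries in turn, LSM6 with shRNA-146 passed in 9 of 9, SF3B5 for the mean in 7 of 9, and the other 9 genes called for the mean in 2 to 4 of 9. Of the other calls with shRNA-146, SF3B5 passed in 7 of 9, LSM7 in 3, and LSM4, SNRPA, SNRPB, SNRPD2 and SNRPG in 2, and SF3B5 with shRNA-143 passed in 2. Without shRNA-146 replicate 1 the blocked fit called 14 genes as lower with shRNA-143, where 6.57% of all genes passed as lower and 7.12% as higher. It then called 19 with shRNA-146 (4.91% and 6.47%) and 23 for the mean (9.87% and 10.2%), and 0 as higher in each, so the share called rose over all genes too. Without control replicate 2 or control replicate 3 it called 0 for the mean (0.0391% and 0.0456% of all genes as lower), and without control replicate 1, shRNA-143 replicate 2 or shRNA-143 replicate 3 it called 1 (0.475%, 0.588% and 0.588%). On the other lists SNU13 and PPIH passed for the mean in 7 of 9, COPRS in 6, KHDRBS1 and MAGOH in 4, TIA1 and SNRNP25 in 3 and GEMIN2 in 1. Without the libraries numbered 1 of all groups, an analysis added after the data were seen, 19 genes were called for the mean without the block (4.92% of all genes passed as lower) and 23 with it (9.29%).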

How the data were processed

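RNA-seq of 9 THP-1 libraries was analysed from the raw counts per gene that the authors deposited. Tools named in the submitters' processing notes are fastp, STAR 2.5, featureCounts and DESeq2, with build hg38. No source says whether counting used strand, so overlapping genes are uncertain: 30 of the 69 have exons overlapping another gene, 13 of them on the same strand. All 69 positions equal GENCODE 29. The log2 fold changes and adjusted p-values of the authors' deposited tables were used only where named.

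Genes were filtered with filterByExpr, normalized by TMM and tested by quasi-likelihood in edgeR 4.0.16 (R 4.3.3), all 9 libraries in 1 fit (6 residual degrees of freedom), with Benjamini-Hochberg adjustment over 14975 genes in each of 4 comparisons. Standard errors are the absolute log2 change divided by the square root of F. Deviations from group means correlated at 0.252 to 0.758 in the 9 library pairs sharing a number and at -0.678 to 0.535 in the others. The blocked fit (4 residual degrees of freedom) is therefore also given; this pairing comes from the data, not the labels. Libraries of a group differed by a chi-square per degree of freedom of at least 20.3, so none repeated another. Alternatives were DESeq2 1.42.0, limma-voom (limma 3.58.1), other scalings, no filter, a gene length correction and leaving out each library. The fitting code was tested on simulated data.

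Named genes are those past the threshold in either fit, the most abundant per length and the most changed of each role, SF3B1, SRSF2 and untested members, and on other lists up to 3 called genes each, U2AF1, ZRSR2 and NFATC2. Some markers of other cell types are not reported here. Genes, roles and lists were chosen with earlier results of these data known.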

Additional observations from a re-analysis of the deposited data

Results flagged for a closer look

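LSM6 differed between the constructs. In a direct test of shRNA-146 against shRNA-143 with the replicate number as a block, its log2 fold change was -1.22 (adjusted p = 0.00825, edgeR quasi-likelihood test), and shRNA-146 was lower in 3 of 3 replicate numbers, at 29.3%, 49.2% and 54.0% of shRNA-143. Without the block it was -1.33 (adjusted p = 0.796). With the block it passed in 7 of 9 analyses that each left out a library, and missed without shRNA-143 replicate 1 (adjusted p = 0.0645) or shRNA-143 replicate 2 (adjusted p = 0.0533). NFATC2 was at 5.28 ± 3.29 CPM with shRNA-143 and 6.24 ± 3.44 with shRNA-146 (SD, n = 3 libraries each).

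SNU13, from the tri-snRNP list, also differed between the constructs in that test, in the opposite direction: its log2 fold change for shRNA-146 against shRNA-143 was 0.77 ± 0.16 with the block (adjusted p = 0.0431), with shRNA-146 higher in 3 of 3 replicate numbers, and 0.79 ± 0.30 without it (adjusted p = 1). The blocked test passed in 3 of 9 analyses that each left out a library (0.63 to 0.92), and DESeq2 gave an adjusted p of 0.688.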

How the results depend on the processing

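Without the replicate block, counts of 0 held under all other scalings, without the low count filter, with limma-voom and without any 1 library. DESeq2 called 2 genes with shRNA-146, 1 for the mean and 1 on the other lists. With the replicate block the calls were 1, 8, 10 and 1 for shRNA-143, shRNA-146, the mean and shRNA-146 against shRNA-143, 1 for both constructs and 8 on the other lists. In that order they were 1, 5, 4, 1, 1 and 5 with the block and library size alone, 1, 9, 10, 1, 1 and 9 with the block and median-of-ratios scaling, and 1, 5, 6, 1, 0 and 8 with the block and length correction. Without the libraries numbered 1 (added after the data were seen) they were 3, 14, 19, 1, 2 and 17 without the block and 9, 20, 23, 2, 7 and 31 with it. For the mean, 4.92% and 9.29% of all genes then passed as lower in these 2 fits. With the block and 1 library left out they ranged from 0 to 14, 1 to 19, 0 to 23, 0 to 2, 0 to 11 and 0 to 37, highest without shRNA-146 replicate 1. The cause was not tested. In that setting the shares of all genes were high too, at 9.87% as lower and 10.2% as higher for the mean. Shares of all genes for the blocked fits with other scalings are not given here.

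Reported signs turned only for small, uncalled changes. HNRNPF with shRNA-143 became 0.055 with library size alone, 0.058 with the block and library size and 0.043 with the block and length correction. SF3B1 for the mean became -0.060 with the block and length correction. With 1 library left out, HNRNPF with shRNA-143 ranged over -0.21 to 0.096 (-0.092 to 0.00013 with the block), HNRNPUL1 for the mean over -0.079 to 0.53 (-0.097 to 0.33), SF3B1 for the mean over 0.027 to 0.13 (-0.00038 to 0.16) and LSM6 with shRNA-143 over -0.65 to 0.27. The median change of the 68 genes stayed below 0 in every setting and comparison, and moved by more than its SD over replicate numbers in 29 of 120 cases. With at least 40047459 counts a library, HNRNPUL2-BSCL2 was too sparse to test, and the lowest counts of tested genes in a library were 82 in HNRNPA1L2 and 84 in SRSF12.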
